A study of Mus musculus with 12 samples.

Results

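The genes described here encode the machinery that releases synaptic vesicles, measured in the mouse amygdala at home cage and after fear conditioning. They were chosen by gene symbol alone: every probe annotated to a synaptotagmin (Syt), syntaxin (Stx), syntaxin binding protein (Stxbp), Vamp, Snap, synapsin (Syn1, Syn2, Syn3), Sv2, complexin (Cplx), Rab3, Rims or Unc13 gene, or to Syp or Synpr. The array held 139 such probes for 72 genes. Of these, 105 probes for 60 genes had a detection p under 0.05 on 4 or more of 12 arrays and were tested, among 23516 tested probes for 11698 genes. The samples were bilateral amygdala taken with 1 mm punches from male C57Bl/6J mice aged 10 weeks, hybridised to single-colour Illumina bead arrays. Home-cage mice (HC, 4 arrays) were set against mice taken 2 h after fear conditioning (FC, 4 arrays) and mice that were immobilized and fear conditioned and taken 2 h after conditioning (IMO_FC, 4 arrays). The sample titles speak of fear conditioning, whereas the series design text names fear expression or extinction for the same groups. No label ties each array to an animal of its own, and the p-values describe the spread between arrays, which may be technical.

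Transmitter release depends on a small set of interacting proteins. Synaptobrevin on the vesicle (Vamp1, Vamp2) pairs with syntaxin (Stx1a) and Snap25 on the plasma membrane to form the SNARE complex, Munc13 proteins (Unc13a) guide its assembly, and synaptotagmin senses the calcium that triggers fusion. Rab3 and Rim proteins hold vesicles at the active zone, and synapsins tether the reserve pool of vesicles. The symbol rule is wider than this pathway: it also takes in SNARE proteins of endosomes and the secretory route (Stx7, Stx12, Stx16, Stx18, Vamp4, Vamp8), the clathrin adaptor Snap91, and synaptotagmins with other roles. Of the 72 genes, 12 had no tested probe: Cplx3, Cplx4, Rims4, Stx2, Stx11, Stx19, Syt2, Syt8, Syt10, Syt14, Syt15 and Vamp5. The best of their probes was the Syt2 probe, detected on 3 of 12 arrays. 4 tested probes passed with detection on just 4 arrays.

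FC 1 and FC 3 carried little signal. FC 1 had 11.7% and FC 3 15.9% of all probes detected, and 33 and 39 of the 105 release-machinery probes. The other 10 arrays had 39% to 50.7% of all probes and 79 to 103 of the 105 probes detected, the lowest being IMO_FC 1. Signals on these 10 arrays ranked alike, with Spearman rho from 0.77 to 0.933 across probes. The main values below are therefore from the 10 arrays (HC n = 4, FC n = 2, IMO_FC n = 4). Values from all 12 arrays are given for part of those that involve FC. All levels are log2 signals after background correction and quantile normalization. Probes differ in how strongly they bind, so the level of one gene says nothing against that of another. Each gene is given by its brightest probe unless another is named. Of the 105 probes, 74 were detected on all 10 arrays, covering 51 genes, and 22 on all 12, covering 18 genes.

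No release-machinery probe passed in any of the 3 comparisons. In limma's test with Benjamini-Hochberg adjustment over all 23516 probes, the lowest adjusted p was 1 between FC and HC, 0.999 between IMO_FC and HC, and 1 between the conditioned groups. This held for the whole array, where 0% of probes passed in each comparison. At an unadjusted p under 0.05, 2 member probes were higher and 1 lower in FC than in HC, against a background of 1.71% higher and 1.73% lower among all tested probes. Between IMO_FC and HC 1 was higher and 1 lower (background 1.39% and 1.76%). Between IMO_FC and FC 0 were higher and 1 lower (background 1.66% and 1.83%). These shares lie near the background. The counts of 3, 2 and 1 probes rest on single arrays. Leaving out 1 array at a time gave 1 to 7, 0 to 4 and 0 to 8. The count for FC against HC was 7 without IMO_FC 1, which enters through the shared estimate of spread and the joint normalization, and 1 without HC 4. That for IMO_FC against HC was 4 without FC 2 or without FC 4, and 0 without HC 1. That for IMO_FC against FC was 5 without FC 2, 8 without FC 4 and 7 without IMO_FC 1, and 0 without HC 2, HC 3 or IMO_FC 2.

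The estimated differences were mostly small, with wide intervals. The median over the 105 probes was 0.05 on the log2 scale for FC minus HC, 0.038 for IMO_FC minus HC and −0.052 for IMO_FC minus FC, where the medians over all tested probes were −0.0012, −0.0066 and −0.005. Of the 60 genes, 33 had a higher and 27 a lower mean in FC than in HC, 29 a higher and 31 a lower mean in IMO_FC than in HC, and 20 a higher and 40 a lower mean in IMO_FC than in FC. The last 2 comparisons share the IMO_FC arrays, and each shares a group with the first. Differences stayed within 0.5 log2 units for 52, 53 and 47 of the 60 genes, against 80.2%, 84.3% and 79.3% of all tested genes. For 12 of the 60 genes both FC arrays lay above or below all HC arrays, and for 8 they lay apart from all IMO_FC arrays. With 2 arrays against 4 there are just 15 arrangements, so such separation says little about a gene. Its share over all tested probes was not computed for the comparisons with FC. What the arrays could resolve is given by the 95% intervals. For IMO_FC minus HC the interval lay within 1 log2 unit of zero for 40 of the 60 genes and within 0.5 for 4, Cplx1, Rims3, Snap91 and Syt4. For FC minus HC it lay within 1 for 30 genes and within 0.5 for 0, and for IMO_FC minus FC within 1 for 32 and within 0.5 for 0. Larger differences were thus not excluded for many genes. The median width to either side was 0.62 for IMO_FC minus HC, against 0.76 in the comparisons with FC. Member probes varied a little less between arrays of a group than others did, with a median residual SD of 0.406 against 0.457 for all tested probes. In bulk tissue a lower signal can come from fewer cells of a type or from less RNA per cell, and these cannot be told apart here.

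**Figure D1:**
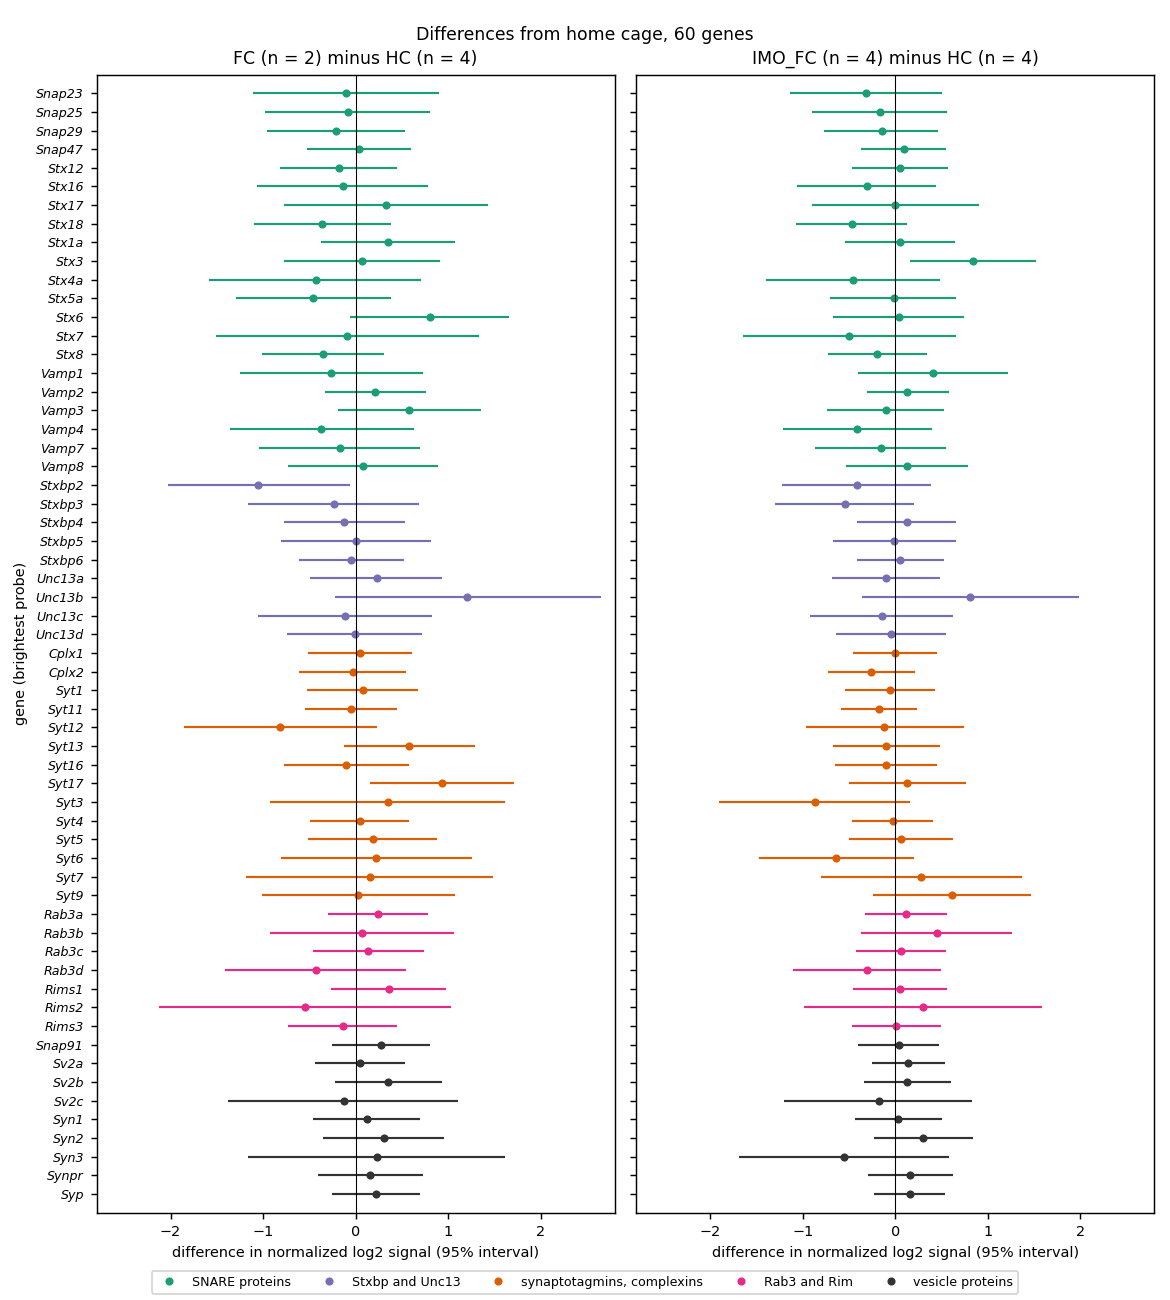
Difference in normalized log2 signal from home cage for the brightest probe of each of the 60 genes, FC (n = 2) on the left and IMO_FC (n = 4) on the right. Points are differences of group means and lines are 95% intervals from limma, coloured by role. Most points lie within 0.5 of zero, and the intervals exclude zero for 2 genes on the left (Syt17, Stxbp2) and for 1 on the right (Stx3).

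The SNARE proteins made up the largest role, with 21 genes and 38 probes. Their median over probes was −0.071 for FC minus HC and −0.009 for IMO_FC minus HC. Means were higher in FC for 8 genes and lower for 13, and higher in IMO_FC for 9 and lower for 12, relative to HC. Stx1a, the neuronal syntaxin of the plasma membrane, read 8.11, 8.54, 8.58 and 8.13 on HC 1 to 4, 8.69 on both FC 2 and FC 4, and 9.1, 8.24, 7.98 and 8.24 on IMO_FC 1 to 4. Both FC arrays lay above all HC arrays, by a mean of 0.35 ± 0.327 (SE), and IMO_FC spanned the HC range with a mean difference of 0.05 ± 0.267. With all 12 arrays the FC difference was −0.08, since FC 1 read 5.57 and FC 3 9.58.

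Snap25, the partner of Stx1a, read 10.52, 10.7, 11.14 and 10.92 on the HC arrays, 10.29 and 11.18 on FC 2 and FC 4, and 9.75, 11, 10.93 and 10.92 on IMO_FC 1 to 4. The groups overlapped, although IMO_FC 1 and FC 2 lay below every HC array. Snap25 differed from HC by −0.08 ± 0.403 in FC and −0.17 ± 0.329 in IMO_FC, and by 0.13 in IMO_FC without IMO_FC 1. With all 12 arrays its FC difference was −0.81. The other Snap25 probe, ILMN_2741123, read highest on IMO_FC 1 (8.94 against 8.53 to 8.62). It differed from HC by 0.32 in FC (0.9 with all 12 arrays) and 0.25 in IMO_FC. Vamp2, the main synaptobrevin of the forebrain, read 11.04, 11.25, 11.3 and 11.29 in HC, 11.53 and 11.33 in FC, and 11.74, 11.25, 11.19 and 11.23 in IMO_FC. Both FC arrays lay just above the HC arrays and IMO_FC overlapped them, with a difference from HC of 0.21 ± 0.248 in FC and 0.13 ± 0.203 in IMO_FC. Vamp1, its close relative, read 9.08, 9.6, 9.36 and 9.21 in HC, 9.69 and 8.41 in FC, and 10.56, 9.9, 9.35 and 9.07 in IMO_FC. FC 2 and FC 4 thus stood on either side of the HC arrays for Vamp1, and 2 IMO_FC arrays lay above them. The difference of IMO_FC from HC was 0.41 ± 0.367, or 0.13 without IMO_FC 1.

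**Figure D2:**
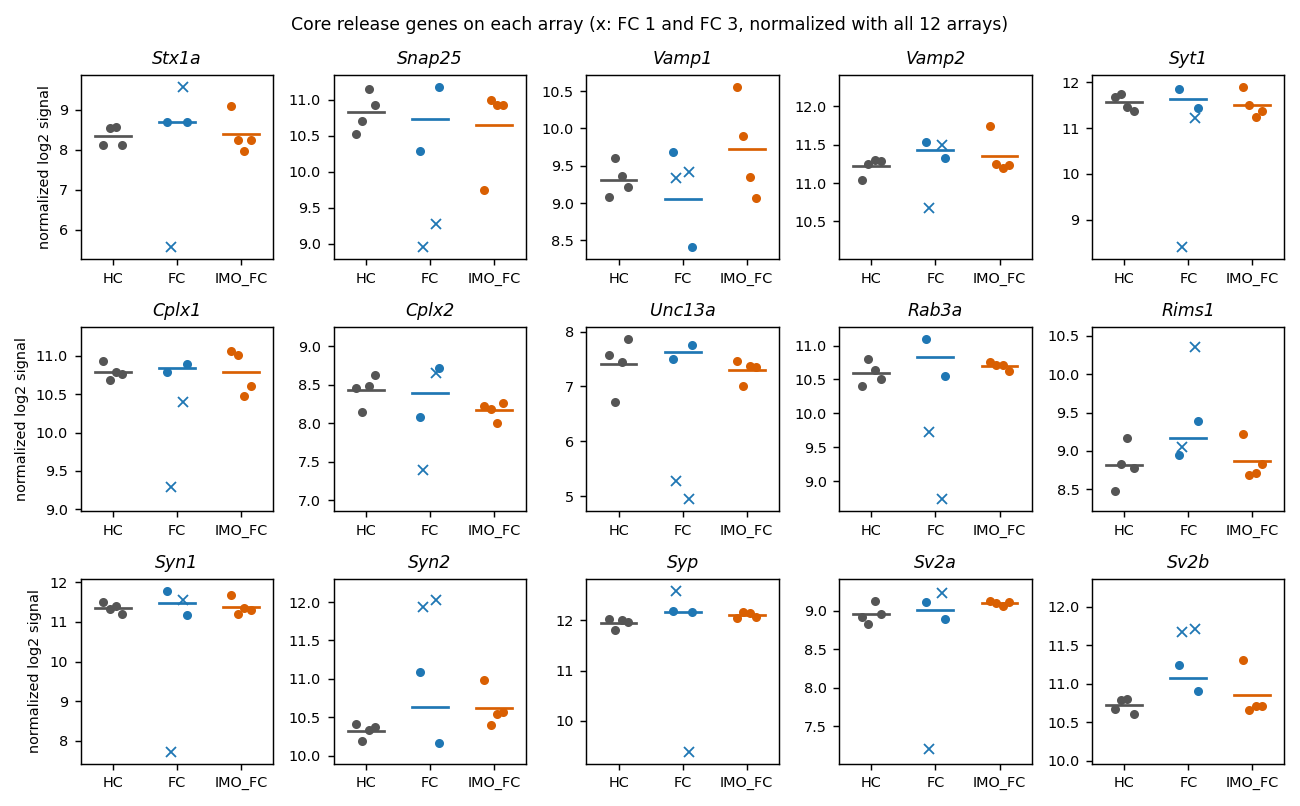
Normalized log2 signal of 15 core release genes on each array, 1 panel per gene with its own axis. Filled points are the 10 arrays compared, bars are their group means, and crosses are FC 1 and FC 3 from the normalization of all 12 arrays. Filled points of HC and IMO_FC overlap for all genes shown except Syp, while crosses often lie far from the other arrays, as for Unc13a at 5.27 and 4.94.

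Stx3, a syntaxin of dendritic and ribbon-synapse exocytosis, gave the smallest p among member probes between IMO_FC and HC, but its probes went opposite ways. The brightest, ILMN_2665125, read 6.35, 6.86, 6.63 and 6.69 in HC, 6.37 and 7.03 in FC, and 7.61, 8.23, 6.82 and 7.22 in IMO_FC. 3 of the 4 IMO_FC arrays lay above all HC arrays, and the mean difference was 0.84 ± 0.31 (SE, 1.79-fold, limma's unadjusted p = 0.0207, adjusted p = 0.999, exact permutation p = 0.0571). A second probe, ILMN_1254237, read 6.35, 6.22, 5.44 and 6.52 in HC and 4.48, 5.65, 5.89 and 5.18 in IMO_FC. It differed by −0.84 ± 0.376 (unadjusted p = 0.0489, exact permutation p = 0.0857), and by −0.57 without IMO_FC 1. The other probe, ILMN_3107114, differed by 0.26 ± 0.471. Stx3 thus had no single direction. Relative to FC the first probe stood 0.77 ± 0.379 higher in IMO_FC, and 0.44 higher without FC 2.

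**Figure D3:**
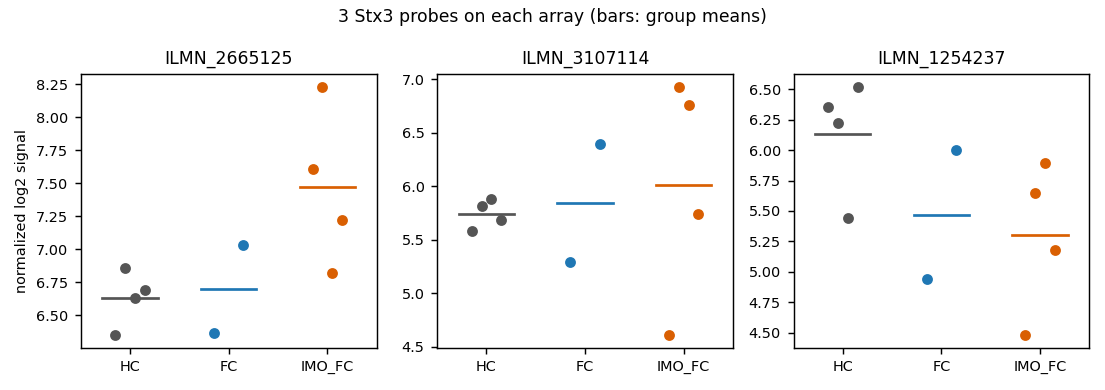
Normalized log2 signal of the 3 tested Stx3 probes on the 10 arrays compared, each panel with its own axis. Points are arrays and bars are group means. IMO_FC lies mostly above HC for ILMN_2665125 (difference 0.84) and mostly below it for ILMN_1254237 (difference −0.84).

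Disagreement between probes of a gene was common. Of the 60 genes, 32 had more than 1 tested probe, 77 probes in all. The probes shared a sign in 15 genes for FC minus HC, in 16 for IMO_FC minus HC and in 15 for IMO_FC minus FC. The median range between probes of a gene was 0.41, 0.29 and 0.32 log2 units, with the widest ranges in Unc13c (1.36), Stx3 (1.68) and Syn3 (1.7). Stx6, a syntaxin of the trans-Golgi network, read 7.21, 6.72, 7.41 and 6.51 in HC and 7.96 and 7.56 in FC. FC lay above HC by 0.8 ± 0.389, but its other probe gave −0.43, and the brightest gave −0.79 with all 12 arrays, where the probe was not detected on FC 1 or FC 3. A dim Vamp1 probe, ILMN_3137767, read 5.06 to 5.17 in HC and 5.65 and 5.78 in FC, a difference of 0.6 ± 0.261 (unadjusted p = 0.0437, exact permutation p = 0.0667, the lowest possible with 2 arrays in a group). The brightest Vamp1 probe gave −0.26 in that comparison. Between IMO_FC and FC the brighter Vamp1 probes went together, ILMN_2480543 with 0.67 ± 0.449 and ILMN_2480542 with 0.68 ± 0.419. Both rest on single arrays: the latter gave 0.41 without IMO_FC 1, 0.12 without FC 4 and 1.25 without FC 2. A dim probe of Stx8, an endosomal syntaxin, read 4.47 and 4.49 in FC, where neither array detected it, and 4.51, 7.87, 6.04 and 4.93 in IMO_FC, where 3 arrays did. It was tested only because of these detections, so no difference is drawn from it. The brightest Stx8 probe gave 0.15.

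The Stxbp and Unc13 genes, counted as 1 role, numbered 9 genes and 17 probes (5 Stxbp and 4 Unc13 genes). Not all of them guide SNARE assembly, Stxbp5 being a competitor of synaptobrevin. Median differences over probes were −0.045 for FC minus HC and −0.105 for IMO_FC minus HC, with 3 genes higher and 6 lower in each. Unc13a, the main Munc13 of forebrain synapses, read 7.58, 6.72, 7.44 and 7.87 in HC, 7.5 and 7.76 in FC, and 7.46, 7, 7.38 and 7.35 in IMO_FC. These ranges overlapped, with differences from HC of 0.23 ± 0.324 and −0.1 ± 0.265. With all 12 arrays the FC difference was −0.93, where FC 1 and FC 3 did not detect this probe. The other Unc13a probe, ILMN_2421623, was detected on FC 3. It gave 0.45 for FC minus HC on 10 arrays and 0.75 on 12. Stxbp2, a syntaxin-binding protein best known from secretion outside neurons, read 6.89, 6.7, 7.51 and 7.26 in HC, 5.83 and 6.26 in FC, and 7.67, 6.85, 6.07 and 6.09 in IMO_FC. Both FC arrays lay below all HC arrays, by −1.05 ± 0.447 (2.07-fold lower, unadjusted p = 0.0397, adjusted p = 1, exact permutation p = 0.0667), and IMO_FC spread over both ranges. Stxbp2 was not detected on FC 1 or FC 3, so the all-array difference of −1.67 adds nothing to this.

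Stxbp3, another syntaxin-binding protein, read 9.47, 9.42, 9.47 and 9.67 in HC and 7.97, 9.29, 9.18 and 9.39 in IMO_FC. All IMO_FC arrays lay below all HC arrays. The mean difference was −0.55 ± 0.341 (95% interval −1.3 to 0.2, exact permutation p = 0.0286, the lowest possible with 4 arrays per group, limma's adjusted p = 0.999), and IMO_FC 1 was far below the others. Without IMO_FC 1, in the same normalization, the difference was −0.22. Among all tested probes 1.26% had IMO_FC wholly below HC and 1.18% wholly above it, and among member probes 1 and 2, the latter being Syp and a dim Syt12 probe that was tested only through its detection in IMO_FC. Unc13c, the Munc13 of cerebellar granule cells, differed by −0.96 ± 0.466 in FC at probe ILMN_1221160, detected on all 10 arrays, with FC 2 at 6.01 against 8.08 on FC 4 and 7.66 to 8.27 in HC. Without FC 2 the difference was 0.07, and the other Unc13c probes gave −0.11 (the brightest) and 0.4. With all 12 arrays ILMN_1221160 gave −1.9, where FC 1 and FC 3 did not detect it. Unc13b, a Munc13 of a subset of excitatory synapses, had the largest difference of the role in FC, 1.21 ± 0.649. In IMO_FC Unc13b differed from HC by 0.81 ± 0.53. With all 12 arrays its FC difference was −0.34, where FC 1 and FC 3 did not detect it. HC 4 read 5.35 for Unc13b against 6.9 to 7.42 on the other HC arrays, and IMO_FC 1 read 8.85 against 6.85 to 7.18 on the others of its group. Without IMO_FC 1, in the same normalization, the IMO_FC difference was 0.37. For Stxbp5, the tomosyn that competes with synaptobrevin, probe ILMN_2437792 was detected on all 10 arrays and differed by −1.12 ± 0.618 between IMO_FC and HC, with IMO_FC 1 at 5.85 against 8.83 to 9 on the other 3. Without IMO_FC 1 the difference was −0.35. The other Stxbp5 probe, which had about the same HC mean (9.16 against 9.29), gave −0.01.

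Synaptotagmins, not all of them calcium sensors, and complexins comprised 14 genes and 21 probes. Their median over probes was 0.077 for FC minus HC and −0.027 for IMO_FC minus HC, with 10 genes higher in FC and 4 higher in IMO_FC than in HC. Relative to FC, 3 were higher and 11 lower in IMO_FC. Syt1, the fast calcium sensor of most forebrain synapses, read 11.69, 11.74, 11.46 and 11.38 in HC, 11.85 and 11.44 in FC, and 11.91, 11.51, 11.25 and 11.38 in IMO_FC. The groups overlapped, and Syt1 differed from HC by 0.08 ± 0.269 in FC and −0.06 ± 0.22 in IMO_FC. FC 1 read 8.4 and FC 3 11.23, which brought the FC difference to −0.76 with all 12 arrays. Syt1 probe ILMN_2608416 gave −0.14 on 10 arrays and −0.42 on 12, and ILMN_1226085 gave 0.63 and −0.05. Cplx1, a complexin that clamps and speeds fusion, read 10.93, 10.68, 10.79 and 10.76 in HC, 10.79 and 10.89 in FC, and 11.06, 11.01, 10.48 and 10.6 in IMO_FC. The means of HC and IMO_FC were both 10.79, and the 95% interval of their difference was −0.46 to 0.45. Cplx2, its relative in excitatory neurons, read 8.46, 8.15, 8.49 and 8.63 in HC, 8.08 and 8.72 in FC, and 8.22, 8.19, 8 and 8.27 in IMO_FC. The difference of −0.26 ± 0.214 between IMO_FC and HC was within the overlap of the groups, with an exact permutation p of 0.114.

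Other synaptotagmins gave the smallest p-values of the role. Syt17 read 6.65, 6.5, 6.16 and 5.78 in HC, 6.81 and 7.6 in FC, and 6.51, 6.4, 6.78 and 5.93 in IMO_FC. Both FC arrays lay above every HC and IMO_FC array. The difference was 0.93 ± 0.35 from HC (1.91-fold, unadjusted p = 0.0223, adjusted p = 1) and that of IMO_FC from FC was −0.8 ± 0.35 (unadjusted p = 0.0432, adjusted p = 1), each with an exact permutation p of 0.0667. These comparisons share the FC arrays and lean on FC 4: without it the differences were 0.54 and −0.41. FC 1 read 9.32 and FC 3, where the probe was not detected, 6.83 for Syt17, and with all 12 arrays the differences were 1.45 and −1.32. Syt13, which lacks the calcium-binding residues of Syt1, read 7.56 and 7.3 in FC and 6.4 to 7.21 in IMO_FC. Its difference between IMO_FC and FC of −0.68 ± 0.321 became 0.36 with all 12 arrays, where FC 1 and FC 3 read 5.98 and 4.36 without detection. Syt3, a high-affinity calcium sensor, read 6.58, 6.87, 6.41 and 7.17 in HC, 7.87 and 6.34 in FC, and 4.51, 6.27, 6.48 and 6.27 in IMO_FC. IMO_FC 1 stood well below the rest. The difference of −0.87 ± 0.468 from HC was −0.41 without IMO_FC 1, and that of −1.22 ± 0.573 from FC was 0.08 with all 12 arrays. Syt9, a fast calcium sensor of limbic and striatal neurons, read 8.33 on IMO_FC 1 and 6.41 to 6.78 on the other IMO_FC arrays, and 6.05 to 6.77 in HC. Its difference of 0.61 ± 0.387 was 0.19 without IMO_FC 1. For Syt12 the brightest probe was −0.82 ± 0.473 in FC relative to HC. A dimmer Syt12 probe, ILMN_2943868, read 4.51 to 5.04 in HC and 5.08 to 5.66 in IMO_FC. It was detected on 1 HC array and on all 4 IMO_FC arrays and was tested only because of the latter, so its values are a description and support no difference. The brightest Syt12 probe gave −0.12 between those groups.

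Rab3 and Rim proteins comprised 7 genes and 12 probes, with medians of 0.105 for FC minus HC and 0.107 for IMO_FC minus HC. 4 genes had a higher mean in FC and 6 in IMO_FC than in HC. Rab3a, the main Rab of synaptic vesicles, read 10.41, 10.8, 10.64 and 10.5 in HC, 11.1 and 10.55 in FC, and 10.76, 10.71, 10.71 and 10.63 in IMO_FC. All IMO_FC arrays lay within the HC range, and the differences from HC were 0.24 ± 0.246 in FC and 0.11 ± 0.201 in IMO_FC. Rims1, the scaffold that links Rab3 to Munc13 at the active zone, read 8.48, 8.83, 9.17 and 8.78 in HC, 8.95 and 9.39 in FC, and 9.22, 8.69, 8.72 and 8.83 in IMO_FC. The groups overlapped, with differences of 0.36 ± 0.281 and 0.05 ± 0.23 from HC. With all 12 arrays the FC difference of Rims1 was 0.74 and that of Rab3a −0.46. Their other probes gave other values. Rims1 probe ILMN_3082271 gave −0.14 for FC minus HC on 10 arrays and −1.34 on 12. Rab3a probe ILMN_2673188 gave 0.14 and −0.05. Rab3b differed by 0.45 between IMO_FC and HC, and its 2 probes stood 1.36 and 1.46 higher on IMO_FC 1 than the median of the other IMO_FC arrays.

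Proteins of the vesicle itself and the clathrin adaptor Snap91, counted as 1 role, comprised 9 genes and 17 probes. This role varied least, with a median residual SD of 0.26. The median over its 17 probes was 0.219 for FC minus HC and 0.154 for IMO_FC minus HC. Snap91 probes ILMN_1247504 and ILMN_2597032 gave 0.28 and 0.63 for FC minus HC, and 0.04 and 0.4 for IMO_FC minus HC. The counts and medians of the role include Snap91 and were not computed without it. 8 of the 9 genes had a higher mean in FC and 7 in IMO_FC than in HC, and 8 a lower mean in IMO_FC than in FC. Excitatory neuron markers lay the same way in FC, with 8 of 9 higher than in HC and a median difference of 0.41, and in IMO_FC 4 of 9 were higher, with a median of −0.051. Blood markers were higher in 5 of 5 in both, with medians of 0.418 and 0.359. Pan-neuronal markers were split, with 5 higher and 6 lower in FC (median −0.019) and 4 and 7 in IMO_FC (median −0.012). GABA markers had 4 higher and 5 lower in both, with medians of −0.024 and −0.047. The part of any of these lists in the vesicle genes' differences was not tested. With all 12 arrays 3 of the 9 genes of the role were higher in FC than in HC. There the FC medians of the excitatory and blood markers were −0.881 and 0, and those of the pan-neuronal and GABA markers −1.206 and −1.42. None of the 17 probes reached an unadjusted p under 0.05. Syp, synaptophysin, a major vesicle membrane protein, read 12.02, 11.81, 12 and 11.97 in HC, 12.18 and 12.17 in FC, and 12.04, 12.17, 12.14 and 12.07 in IMO_FC. All IMO_FC and both FC arrays lay above all HC arrays, although by little: the difference was 0.22 ± 0.213 in FC and 0.16 ± 0.174 in IMO_FC (1.11-fold, 95% interval −0.23 to 0.54, limma's adjusted p = 0.999, exact permutation p = 0.0286). The spread between arrays of a group was 0.0717 (residual SD), and limma's moderated error is wider than that. FC 1 read 12.59 and FC 3 9.38 for Syp, which turned the FC difference to −0.3.

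Syn1, the synapsin of nearly all synapses, read 11.49, 11.33, 11.4 and 11.2 in HC, 11.78 and 11.17 in FC, and 11.69, 11.2, 11.34 and 11.3 in IMO_FC. The groups overlapped, with differences of 0.12 ± 0.262 and 0.03 ± 0.214 from HC. With all 12 arrays the FC difference of Syn1 was −0.72. The other Syn1 probe, ILMN_2762083, gave 0.11 on 10 arrays and 1.03 on 12. Syn2 read 10.41, 10.19, 10.33 and 10.37 in HC, 11.09 and 10.17 in FC, and 10.98, 10.4, 10.55 and 10.57 in IMO_FC. 3 of the 4 IMO_FC arrays exceeded the highest HC array, with a difference of 0.3 ± 0.242 and an exact permutation p of 0.0571, and a difference of 0.18 without IMO_FC 1. The 2 FC arrays lay on either side of HC. FC 1 and FC 3 read 11.93 and 12.03 and brought the FC difference for Syn2 from 0.31 to 1.09. Syn2 probe ILMN_2462532 went from 0.22 to −0.33, and ILMN_1216744 from 0.05 to 0.01. Sv2a, the vesicle glycoprotein that binds levetiracetam, read 8.92, 8.83, 9.13 and 8.96 in HC, 9.12 and 8.89 in FC, and 9.13, 9.1, 9.06 and 9.12 in IMO_FC, a difference of 0.14 ± 0.18 between IMO_FC and HC. Its relative Sv2b read 10.67, 10.79, 10.8 and 10.61 in HC, 11.24 and 10.9 in FC, and 11.3, 10.66, 10.71 and 10.71 in IMO_FC. Both FC arrays exceeded the HC arrays for Sv2b, by 0.35 ± 0.261, and 3 of the 4 IMO_FC arrays lay within the HC range. With all 12 arrays the FC difference of Sv2b was 0.76.

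Promoter sequences are shown for Syp and Stxbp3, the genes whose brightest probe did not overlap between IMO_FC and HC, and for Syn1, a textbook target of the neuronal silencer REST. Each is the 250 bases before the RefSeq transcription start in build GRCm38.p6, read 5′ to 3′ on the gene's strand: Syp at chrX:7638330-7638579 (plus strand), Stxbp3 at chr3:108840503-108840752 (minus strand) and Syn1 at chrX:20920919-20921168 (minus strand). Capitals mark the full cAMP response element, TGACGTCA, and in Syn1 also the core of the RE1 element bound by REST (CAGCACC, 2 bases, GG, 1 base, CAG).
Syp: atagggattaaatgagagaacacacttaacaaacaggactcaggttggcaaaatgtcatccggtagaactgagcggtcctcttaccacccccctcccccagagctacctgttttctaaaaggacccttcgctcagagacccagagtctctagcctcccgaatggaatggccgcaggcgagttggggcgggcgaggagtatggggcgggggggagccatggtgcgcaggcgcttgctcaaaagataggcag
Stxbp3: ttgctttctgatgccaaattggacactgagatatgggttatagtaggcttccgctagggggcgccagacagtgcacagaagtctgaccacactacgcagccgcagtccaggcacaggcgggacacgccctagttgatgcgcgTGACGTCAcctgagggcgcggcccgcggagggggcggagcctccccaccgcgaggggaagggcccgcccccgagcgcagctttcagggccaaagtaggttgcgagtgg
Syn1: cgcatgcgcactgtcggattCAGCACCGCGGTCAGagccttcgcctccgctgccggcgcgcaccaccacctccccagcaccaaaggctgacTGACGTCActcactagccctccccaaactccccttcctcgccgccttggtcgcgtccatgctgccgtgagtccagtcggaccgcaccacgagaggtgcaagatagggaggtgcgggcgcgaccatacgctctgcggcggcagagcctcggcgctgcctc
Both strands were searched. The full cAMP response element reads the same on both strands and holds the half-site TGACG on each. Of all 27025 genes with promoters of this length, 1.77% had it in any of their promoters. It occurred in the Stxbp3 and Syn1 windows and not in the Syp window. The RE1 core was found for 16 of the 27025 genes, Syn1 among them. The GC box, GGGCGG, not capitalised, stood in a promoter of 35.4% of all genes. It occurred 2 times in each of the Syp and Stxbp3 windows. RefSeq promoters were matched for 47 of the 60 genes, so no share over the set is given. These are matches of letters only, and promoter activity was not measured.

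IMO_FC 1 departed from its group across much of the set. 25 member probes stood more than 1 log2 unit below the median of the other 3 IMO_FC arrays and 15 stood more than 1 above it, against 19.3% and 13.9% of all tested probes. The other IMO_FC arrays and the HC arrays had at most 8 member probes in either direction. The SNARE role held 16 of the 25 low probes. Stx7, an endosomal syntaxin, read 7.11 on IMO_FC 1 and 9.68 to 9.77 on the others, and Vamp4, a SNARE of the trans-Golgi network, read 8.91 against 10.56 to 10.69, while the other Vamp4 probe stood 0.61 above the other arrays. Both Stx4a probes were low, by −1.93 and −1.26, as were both Vamp3 probes, by −2.01 and −1.03. Among the high probes were Vamp1 (1.2 and 1.06), Rab3b, Syt9 (1.61), Unc13b (1.67) and Stxbp2 (1.58). Syn3, Syt7 and Rims2 each had probes on both sides, Syn3 with −1.65 and 3.35. Detection on this array was 39% of all probes and 75.2% of member probes, and the part of lower detection in these departures was not tested.

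**Figure D4:**
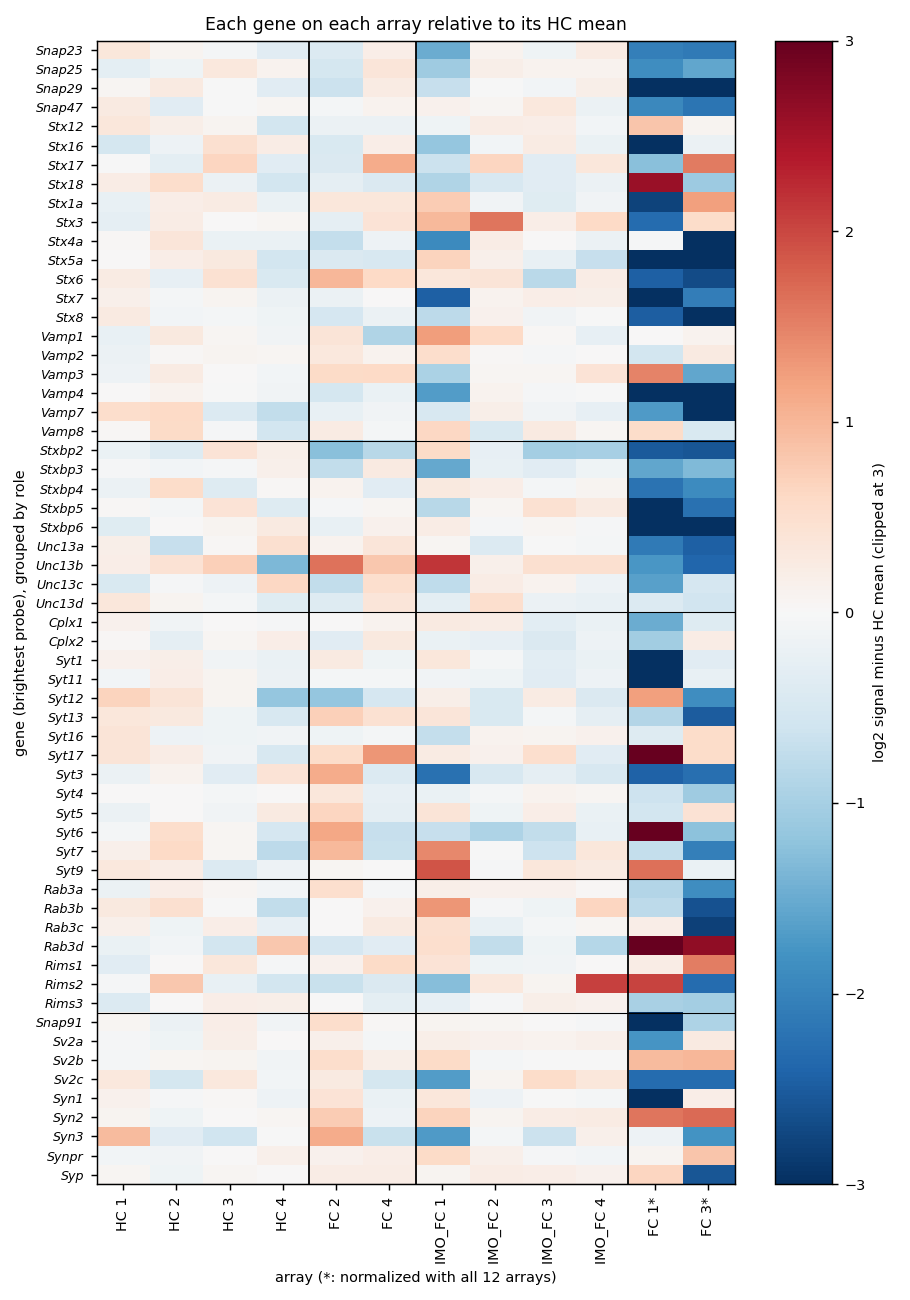
Each of the 60 genes (brightest probe, rows grouped by role) on each array, as log2 signal minus the gene's HC mean, with colours clipped at 3 units. FC 1 and FC 3, at the right, come from the normalization of all 12 arrays. Columns of HC, FC 2, FC 4 and IMO_FC 2 to 4 are mostly pale, while IMO_FC 1 and, far more, FC 1 and FC 3 differ in both directions.

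**Figure D5:**
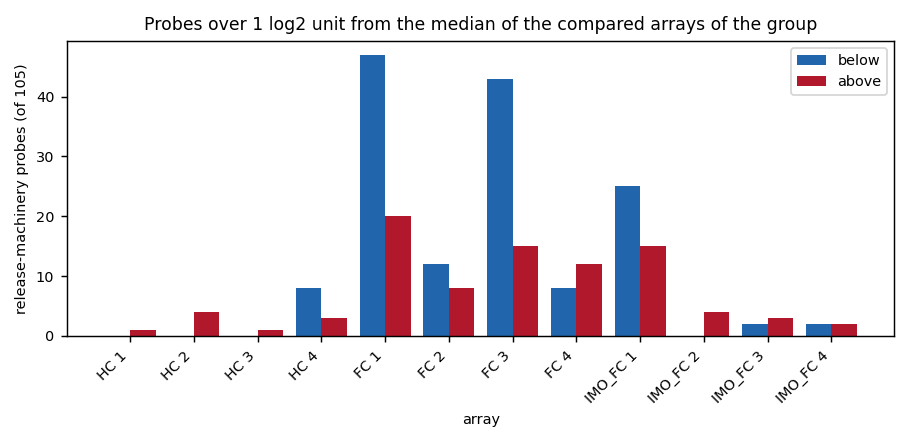
Number of the 105 release-machinery probes lying more than 1 log2 unit below or above the median of the other compared arrays of the same group. FC 2 and FC 4 are each set against the other alone, and FC 1 and FC 3 against both. FC 1 (47 below, 20 above), FC 3 (43 and 15) and IMO_FC 1 (25 and 15) have the highest numbers.

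With FC 1 and FC 3 in the fit, the comparisons with FC took another shape. The median over member probes was −0.293 for FC minus HC and 0.354 for IMO_FC minus FC, and over all tested probes it was −0.294 and 0.279. At an unadjusted p under 0.05, 5 member probes were higher and 11 lower in FC than in HC, against 4.16% and 12.6% of all probes. 10 were higher and 2 lower in IMO_FC than in FC, against 10.7% and 3.01%. Between IMO_FC and HC 0 were higher and 0 lower by limma's test, against 0.153% and 0.247% of all probes. No probe passed the adjusted threshold. Of the 15 core genes, 12 had a higher mean in FC than in HC on 10 arrays and 5 on 12 arrays, and their differences ranged from −0.26 to 0.36 on 10 arrays and from −0.93 to 1.09 on 12.

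The wider vesicle cycle also had no gene that passed. A list of 82 other genes of the cycle (priming factors, endocytosis, transmitter loading, proton pump and adaptor genes) had 76 with a tested probe, with median differences of 0.062 for FC minus HC, −0.037 for IMO_FC minus HC and −0.072 for IMO_FC minus FC, where all genes had −0.011, −0.02 and −0.011. At an unadjusted p under 0.05 in limma's test, 1 was higher and 0 lower in FC than in HC, 1 higher and 1 lower in IMO_FC than in HC, and 0 higher and 0 lower in IMO_FC than in FC. With all 12 arrays the median of the list was −0.917 for FC minus HC and 0.824 for IMO_FC minus FC. Itsn1, an endocytic scaffold, read 7.37 and 7.59 in FC and 6.27 to 7.2 in HC, a difference of 0.68 ± 0.294. Rab5a, the Rab of early endosomes, read 6.78 to 7.27 in IMO_FC and 7.34 to 8.64 in HC, without overlap, a difference of −0.84 ± 0.284 (unadjusted p = 0.0134, exact permutation p = 0.0286, adjusted p = 0.999). Otof, the calcium sensor of hair-cell synapses, was a dim probe that differed by 0.75 ± 0.311.

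Markers of several cell types and regions were detected, which alone does not show the region a signal came from. All 11 tested pan-neuronal markers were detected on all 4 HC arrays, as was Prkcd of the central amygdala, while Crh was detected on 2 of 4. Of the striatal markers, Drd1, Drd2 and Penk were also detected on all HC arrays and Rarb on 2 of 4. Olig2 and Slc4a1 were detected on no array. Mean deviations of marker lists shifted between arrays. Choroid plexus markers (6 tested) lay between −0.9 and 0.94 in HC, at −1.28 and −0.42 in FC, and between −1.63 and −0.56 in IMO_FC. Their median difference was −0.433 in FC and −0.679 in IMO_FC relative to HC. Endothelial markers (6 tested) had medians of 0.098 in FC and −0.484 in IMO_FC, and pan-neuronal markers −0.019 and −0.012. Excitatory, GABA and blood markers are given above with the vesicle proteins. On IMO_FC 1 the excitatory (−0.54), astrocyte (−0.52), endothelial (−0.97) and choroid plexus (−1.63) lists were low and the striatal (0.61) and blood (0.8) lists high, while the 60 release genes averaged −0.13. Over all 10 arrays the release genes lay between −0.16 (HC 4) and 0.08 (HC 2), and pan-neuronal markers between −0.28 (IMO_FC 1) and 0.12 (IMO_FC 3). The part of these shifts in the differences given above was not tested.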

How the data were processed

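The deposited table of unnormalized values gives, per the file headers, a signal intensity and a detection p-value for each of 45281 probes on 12 arrays. A second table by the authors holds normalized intensity, whose method is not given in the sources used here, and served only as an alternative. Per the labels' protocols, RNA was purified with a Qiagen RNeasy kit and labelled with biotin by an Ambion kit. No slide or scan batch is named, so none was fitted.

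From the deposited intensity, limma 3.58.1 in R 4.3.3 computed neqc background correction (from detection p-values, offset 16), quantile normalization and log2 values. Probes detected at p under 0.05 on at least 4 of 12 arrays were tested, 23516 in all. Of all probes, 34885 had 1 gene symbol, 18 several and 10378 none. A linear model of group means was fitted on the 10 arrays without FC 1 and FC 3 (7 residual degrees of freedom, 10.7 after moderation), and again on all 12. The 3 contrasts were tested by limma's moderated test, with p-values adjusted over every tested probe by Benjamini-Hochberg. Exact permutation p-values (two-sided, difference of means, 70 arrangements of 4 against 4, 15 of 2 against 4) are unadjusted, and give no separate support where a probe was picked by its p or its values. The number of arrays limits the precision. The procedure was tested on simulated data.

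Named probes are those of the core genes and, per comparison and direction, the 3 member probes of smallest unadjusted p. Stxbp3, Unc13b, Rab3b and the probes described for IMO_FC 1 were chosen after their values were seen. The members, gene lists and the omission of FC 1 and FC 3 were chosen with earlier results of these data known. Alternatives were other background corrections, normalizations, filters, weights and priors, the replicate number as a block, and each array left out in turn. A fit on all 12 arrays without IMO_FC 1 was added after seeing the data. Sequences are from RefSeq, GRCm38.p6.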

Additional observations from a re-analysis of the deposited data

Results flagged for a closer look

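Among the 30 named probes, the groups of 4 arrays (HC and IMO_FC, 60 groups) were searched for a single array far from the other 3. The nominal rate of the rule is about 1 in 20 groups, and 7 were flagged, 5 of them through IMO_FC 1 and 1 in HC. The groups reuse the same arrays, and part of the probes were named for their p-values in them. The share flagged among all tested probes was not computed, so no excess is read from the 7. On IMO_FC 1, the brightest Snap25 probe read 9.75 against 10.92 to 11 on the other IMO_FC arrays, while the other Snap25 probe read 8.94 against 8.53 to 8.62. On that array Syt3 read 4.51 against 6.27 to 6.48, and Stxbp5 probe ILMN_2437792 read 5.85 against 8.83 to 9. Also there, Vamp2 read 11.74 against 11.19 to 11.25, and Sv2b read 11.3 against 10.66 to 10.71. Stx6 on IMO_FC 3 read 6.16 against 7.18 to 7.34. The dim Stx8 probe on HC 4 read 6.54 against 4.58 to 4.84. FC, with 2 arrays compared, was not searched.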

How the results depend on the processing

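No member probe passed the adjusted threshold under any of the 24 other settings in which calls were made, and any probe of the array passed only without a detection filter (2 in FC against HC, 3 in IMO_FC against FC, none of them members). The count of member probes at an unadjusted p under 0.05 was 3 for FC against HC. It became 16 with all 12 arrays and with all 12 but IMO_FC 1, 6 without a detection filter and 6 when only the groups compared were fitted. For IMO_FC against HC the count of 2 became 0 with all 12 arrays, with or without IMO_FC 1, and with median scaling. It became 1 with no background correction, an offset of 50, cyclic loess, the strict filter, the authors' normalized values and the trend with a robust prior, and 4 when only the groups compared were fitted. For IMO_FC against FC the count of 1 became 12 with all 12 arrays and 7 without IMO_FC 1 among them. It became 3 with no background correction, an offset of 50, median scaling and the authors' values, 2 with cyclic loess, no detection filter and the strict filter, and 0 with the trend and when only the groups compared were fitted. Leaving out 1 array at a time gave 1 to 7, 0 to 4 and 0 to 8.

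The median over member probes moved by more than the array spread of 0.049 in few settings. FC minus HC was −0.293 with all 12 arrays and −0.298 without IMO_FC 1 among them. IMO_FC minus FC was 0.354 and 0.381 there, and 0.004 with array weights. IMO_FC minus HC was −0.039 with median scaling. Without 1 array the medians ranged from −0.001 to 0.075, from −0.01 to 0.077 for IMO_FC minus HC, and from −0.092 to 0.026 for IMO_FC minus FC. Of 1378 values of named probes under settings on 10 or 9 arrays, 48 changed sign, 1 of them with a main value of 0.5 or more. With all 12 arrays 21 of 63 did. The cause of these changes was not tested.

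Same-numbered arrays did not deviate together, with correlations from −0.14 to 0.19, so the numbers were not taken as pairs. With the replicate number as a block the counts were 5, 1 and 2, and no probe was called. The 10 arrays limit what can be seen, since the 95% interval reached a median of 0.62 to 0.76 log2 units to either side.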
